A study of Mus musculus with 15 samples.

Results

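Polyps and inflamed mucosa of the mouse colon were compared across all genes measured, with mice on 5-ASA and untreated mice in 1 comparison. All 15 arrays of the series belonged to the comparison, because each array title named either polypoid or inflamed tissue: 8 arrays held polypoid and 7 held inflamed tissue, from 4 mice each, so 8 of 8 mice entered. The mice were female Swiss Webster, an outbred stock. Every mouse, in all groups, had received azoxymethane, a carcinogen of the colon, at a dose of 7.4 mg/kg and then 3 cycles of 4% dextran sulfate sodium in the water, a polymer that injures the colon lining. A cycle was 7 days of the polymer and 21 days of plain water. The animals were 7 weeks old when the experiment began, 9 weeks at the start of the polymer, and 18 weeks when killed. The 4 groups of 2 mice were untreated inflamed, untreated polypoid, treated inflamed and treated polypoid, where treated mice received 5-aminosalicylic acid (5-ASA, mesalamine) at 75 mg/kg and untreated mice the vehicle. No colon from mice free of carcinogen and polymer was part of the comparison.

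Tissue was cut by laser capture from frozen sections of 5 µm, so a sample holds whatever cells lay in the chosen area, and its RNA was amplified in 2 rounds before labelling. The other dye of each array carried a universal reference RNA of mouse, and a level below is log2 of sample over that reference, as 1 value per mouse; where 4 values follow each other, the 2 untreated mice come before the 2 treated ones. The reference makes a level of 0 mean only that sample and reference were alike. Each mouse gave tissue to 1 group, so p-values measure the spread between mice, and with 4 mice a side their number limits the precision. The sample channel was well above background for 57.4% to 90.9% of spots, with the lowest share in treated inflamed replicate 2, which had 1 array. The arrays were scanned in 4 sessions, and session 3 alone held both tissues (2 polyps and 1 inflamed sample), so tissue and session cannot be fully told apart. Untreated polypoid replicate 1 stood apart from the other polyps and is described after the leading genes.

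The colon lining is renewed from crypt stem cells, whose daughters stop dividing as they move up and become absorptive, mucus-forming or hormone-forming cells. Wnt signalling, carried by beta-catenin and TCF/LEF factors, keeps crypt cells dividing, and tumours of the carcinogen and polymer model are known for activating mutations of beta-catenin. Mature colonocytes burn butyrate made by bacteria and carry the machinery of salt and water uptake, sulfation and xenobiotic handling. Inflamed mucosa of the model is itself a repairing tissue, so the comparison sets tumour tissue against injured tissue of the same model.

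In limma, 1265 of 21301 genes differed between polyps and inflamed mucosa at an adjusted p under 0.05, which is 5.94% of the genes tested. Higher in polyps were 846 genes (3.97%) and lower were 419 (1.97%). Fewer cells of a type and less RNA per cell cannot be told apart in such samples. The typical called gene moved by the same amount in either direction, with medians of 1.1 and -1.1 on the log2 scale (2.15-fold each). The tail was longer on the rising side: 144 risers and 72 fallers passed 4-fold, and 63 and 24 passed 8-fold. All tested genes had a median difference of -0.02, with the middle of the distribution between -0.17 and 0.24 (quartiles) and 5% tails beyond -0.72 and 0.85. The values of the 4 polyps and the 4 inflamed samples did not overlap for 1782 genes higher (8.37%) and 1684 genes lower in polyps (7.91%), so absence of overlap was about equally common in both directions while calls were not. More genes were called among bright probes. With genes ranked by brightness in 4 equal bins, 80 rose and 12 fell in the dimmest bin, and 331 rose and 203 fell in the brightest. When only the sample channel was used, without the reference, 682 genes rose and 518 fell, a rising share of 56.8% against 66.9%.

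The calls did not hold with scan session in the fit, and their number varied with single mice. With session as a block no gene passed in limma, with 3055 genes at an unadjusted p under 0.05. The smallest adjusted p in limma was 0.334, and the calls below carry this limit. The block leaves fewer residual degrees of freedom than the 4 of the main fit. The loss of calls therefore cannot tell an effect of session from lost precision. All 1265 called genes, read in the same mice, kept their sign under the block, with a median size of 1.2 against 1.1. Within session 3 the median size of the called genes was 1.15 against 1.1, which is no independent check, because its mice also served to call them. Some sizes moved under the block, and the value is given beside each named gene whose log2 difference moved by more than 1.5 times. Leaving out a mouse gave 125 calls without treated inflamed replicate 1, 361 and 364 without treated polypoid replicates 2 and 1, and 462 without treated inflamed replicate 2. Replicate 2 of the untreated mice mattered less, with 687 calls after dropping the polyp and 765 after dropping the inflamed sample. Dropping replicate 1 of the untreated polyps raised the count to 1325, and dropping replicate 1 of untreated inflamed mucosa gave 967.

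Ranked by p on all 8 mice, the genes overlapped only in part with the largest folds. Fits that left out 1 mouse used the remaining mice of that ranking, so for these genes they are no independent check. The 10 rising genes with the smallest p were S100a9, Erich3, Npnt, Alox12, Dusp4, Plxnb1, Lratd1, Tead2, Dkk2 and Mex3a, and the 10 falling ones were Aldh1a7, Dbp, Slco2a1, Plekha6, Clstn1, Rapgefl1, Ethe1, Ifi27, Klk4 and Pmp22. All 20 passed the threshold in each of the 8 fits that left out 1 mouse.

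Erich3, which encodes a glutamate-rich protein, was at 3.14 and 2.66 in untreated and 4.44 and 4.13 in treated polyps and at 0.1 and -0.01 in untreated and -0.02 and 0.16 in treated inflamed mucosa. The inflamed samples lay close together near the reference level, and every polyp was higher, the treated polyps most. The rise was 11.6-fold (log2 3.53 ± 0.15 SE, limma adjusted p = 0.00241), and leaving out any mouse gave 3.41 to 3.65. Npnt, which encodes nephronectin, a basement membrane ligand of the integrin that holds the alpha 8 chain, was at -0.32 and -0.47 in untreated and 0.35 and 0.33 in treated polyps against -2.52 and -2.25 in untreated and -2.39 and -2.27 in treated inflamed mucosa. The rise of Npnt was 5.03-fold (log2 2.33 ± 0.1 SE, limma adjusted p = 0.00241), and 5 of 7 inflamed arrays detected it above background. The gene of the alpha 8 chain, Itga8, went the other way, at -0.62, -1.05, -1.0 and -0.54 in polyps against 0.95, 0.12, 0.98 and 1.07 in inflamed mucosa (-1.58 ± 0.23 SE, limma adjusted p = 0.0188), and -0.93 with session as a block.

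Dusp4, a phosphatase that switches off MAP kinases, was at 0.6 and 0.64 in untreated and 1.61 and 1.78 in treated polyps and at -2.01 and -1.51 in untreated and -2.16 and -1.89 in treated inflamed mucosa. The tissues did not overlap, the treated polyps again lay above the untreated ones, and the rise was 8.27-fold (log2 3.05 ± 0.14 SE, limma adjusted p = 0.00241). Plxnb1, a receptor for semaphorin 4D, was at 1.86, 2.34, 2.68 and 3.07 in polyps and -0.45, -0.61, -0.84 and -0.55 in inflamed mucosa, a rise of 8.55-fold (log2 3.1 ± 0.16 SE, limma adjusted p = 0.00284). Tead2, a DNA-binding partner of the growth regulator Yap1, was at -0.41, 0.11, 0.22 and 0.15 against -2.92, -2.96, -3.28 and -2.81 and rose 8.05-fold (log2 3.01 ± 0.16 SE, limma adjusted p = 0.00284). For both genes every polyp was far above every inflamed sample, and their 2 probes agreed in direction.

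Alox12, the arachidonate 12-lipoxygenase, was at 3.97 and 4.05 in untreated and 3.67 and 3.39 in treated polyps, against 0.71 and 0.4 in untreated and 0.76 and 1.15 in treated inflamed mucosa. This riser was higher in untreated than in treated polyps, and it rose 8.08-fold (log2 3.02 ± 0.14 SE, limma adjusted p = 0.00241). Slco2a1, the transporter that takes prostaglandins into cells, moved down, from -0.97, -0.4, -0.39 and -0.39 in inflamed mucosa to -2.03, -2.18, -2.65 and -2.72 in polyps (-1.86 ± 0.14 SE, limma adjusted p = 0.00491). The inflamed samples of Slco2a1 were tight apart from untreated inflamed replicate 1, and no polyp reached them.

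**Figure D1:**
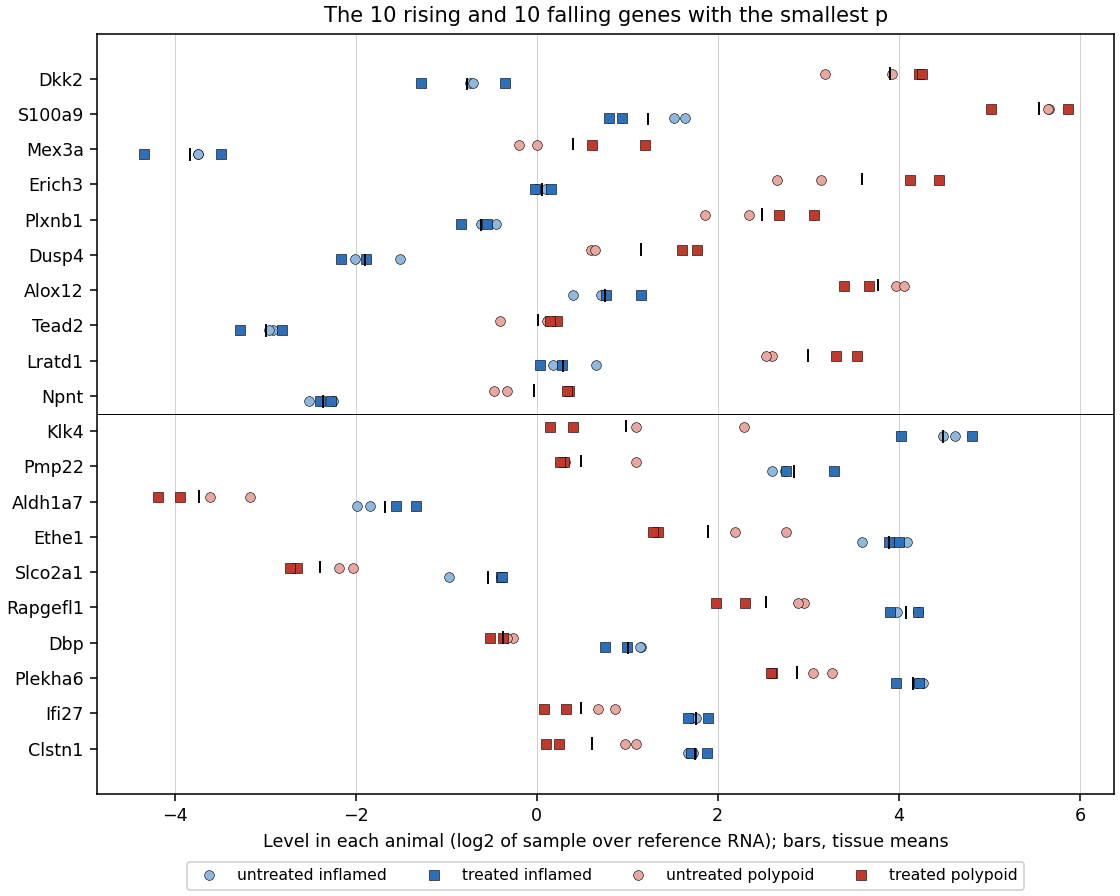
Level of each gene in each of the 8 mice (log2 of sample over reference RNA) for the 10 rising genes (upper block) and 10 falling genes (lower block) with the smallest p, with circles for untreated and squares for treated mice and bars for tissue means. Polyps (red) and inflamed mucosa (blue) do not overlap for any of the 20 genes, and the treated polyps of Erich3 (4.44 and 4.13) lie beyond the untreated ones (3.14 and 2.66), while for Alox12 the order is reversed.

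Among the even fallers, Ethe1, a mitochondrial enzyme that oxidises sulfide products, was at 3.59 and 4.09 in untreated and 4.01 and 3.89 in treated inflamed mucosa and at 2.76 and 2.19 in untreated and 1.34 and 1.29 in treated polyps. It fell 3.99-fold (log2 -2.0 ± 0.17 SE, limma adjusted p = 0.00626), with the treated polyps lowest. Aldh1a7, an aldehyde dehydrogenase, fell 4.13-fold (log2 -2.05 ± 0.14 SE, limma adjusted p = 0.00393), from between -1.99 and -1.33 to between -4.19 and -3.17. Dbp, a transcription factor whose RNA follows the daily clock, had 4 polyps between -0.52 and -0.26 and 4 inflamed samples between 0.75 and 1.16. Its difference was similar in the arms (-1.44 untreated, -1.32 treated), and the hour at which each mouse was killed was not given in the sources used here.

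Among the 20 largest rises, Cfi, the complement protease that cleaves C3b and C4b, was at 5.9 and 4.67 in untreated and 6.35 and 4.81 in treated polyps and at 0.25 and 0.12 in untreated and -0.02 and 0.19 in treated inflamed mucosa. The inflamed samples lay close together, and the polyps scanned in session 3 (replicate 2 of each arm) were the lower ones; the rise was 39.4-fold (log2 5.3 ± 0.41 SE, limma adjusted p = 0.00491). Myl1, a myosin light chain known from striated muscle, was at 5.73 and 4.13 in untreated and 5.39 and 3.82 in treated polyps against 1.0 and -0.25 in untreated and 0.78 and -0.18 in treated inflamed mucosa, again with replicate 1 of each arm above replicate 2 among the polyps, and rose 21.6-fold (log2 4.43 ± 0.56 SE, limma adjusted p = 0.0142). Without treated inflamed replicate 1 its adjusted p was 0.0692, and it was also not called without treated inflamed replicate 2. Mex3a, an RNA-binding protein of crypt base cells, moved up 18.8-fold (log2 4.23 ± 0.23 SE, limma adjusted p = 0.00284), from far below the reference (-3.74, -3.74, -4.34 and -3.49) to near it (0.01, -0.19, 0.61 and 1.2).

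Tnfrsf11b, which encodes osteoprotegerin, a soluble decoy for the cytokine RANKL, was at 4.28 and 4.25 in untreated and 4.91 and 3.99 in treated polyps, against 0.35 and -0.21 in untreated and 0.15 and 0.77 in treated inflamed mucosa. No samples overlapped, and the rise of 17-fold (log2 4.09 ± 0.26 SE, limma adjusted p = 0.00354) held within 3.86 to 4.32 whichever mouse was left out. Prss56, a secreted serine protease, was less even, at 5.57 and 4.26 in untreated and 3.24 and 5.36 in treated polyps against 0.25 and 0.1 in untreated and 0.1 and 2.15 in treated inflamed mucosa. Treated inflamed replicate 2 was high and treated polypoid replicate 1 low for Prss56, and its rise of 15.6-fold (log2 3.96 ± 0.66 SE, limma adjusted p = 0.0273) was lost in 6 of 8 fits that left out a mouse, with adjusted p up to 0.0993. Foxc2, a forkhead factor, was at -2.3, -2.56, -2.48 and -2.22 in inflamed mucosa and at 1.11, -0.55, 1.13 and 1.47 in polyps, so untreated polypoid replicate 2 was the low polyp (3.18 ± 0.36 SE, limma adjusted p = 0.0116).

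Defensins are antimicrobial peptides of Paneth cells. Defa23 was at 6.22 and 5.14 in untreated and 6.12 and 6.04 in treated polyps, against 0.36 and 0.02 in untreated and -0.02 and 3.33 in treated inflamed mucosa. Treated inflamed replicate 2 was far above the other inflamed samples for Defa23, Defa20, Defa22 and Defcr6, although below every polyp, and 4 of 7 inflamed arrays detected Defa23 above background. The rise of 31-fold (log2 4.96 ± 0.72 SE, limma adjusted p = 0.0194) was lost without untreated inflamed replicate 2 or without either treated polyp (adjusted p up to 0.0665). Defensin genes are near copies of each other, so a probe may read several of them.

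The sequence just upstream shows how alike the copies are. The stretches below run from 250 bases before to 50 after the annotated start in RefSeq on GRCm38.p6, all on the plus strand: Defa23 at chr8:21054790-21055089, Defa20 at chr8:21509008-21509307 and, for comparison, the Wnt target Sp5 at chr2:70474673-70474972. They are shown to set 2 copies side by side with a known Wnt target; each holds the TCF/LEF letters in 2 places, as does Prss56. Capitals mark CTTTGA or its reverse complement TCAAAG.
Defa23: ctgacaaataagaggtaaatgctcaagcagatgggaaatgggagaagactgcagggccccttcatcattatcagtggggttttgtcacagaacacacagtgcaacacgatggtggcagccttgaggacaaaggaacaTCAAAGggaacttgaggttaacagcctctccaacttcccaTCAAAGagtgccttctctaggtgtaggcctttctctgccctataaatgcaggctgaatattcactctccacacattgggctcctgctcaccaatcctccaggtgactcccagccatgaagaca
Defa20: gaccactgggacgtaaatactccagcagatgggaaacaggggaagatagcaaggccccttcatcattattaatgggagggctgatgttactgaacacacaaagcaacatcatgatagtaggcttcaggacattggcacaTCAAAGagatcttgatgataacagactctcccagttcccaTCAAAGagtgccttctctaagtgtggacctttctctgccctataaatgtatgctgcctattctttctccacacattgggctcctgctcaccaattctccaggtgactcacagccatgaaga
Sp5: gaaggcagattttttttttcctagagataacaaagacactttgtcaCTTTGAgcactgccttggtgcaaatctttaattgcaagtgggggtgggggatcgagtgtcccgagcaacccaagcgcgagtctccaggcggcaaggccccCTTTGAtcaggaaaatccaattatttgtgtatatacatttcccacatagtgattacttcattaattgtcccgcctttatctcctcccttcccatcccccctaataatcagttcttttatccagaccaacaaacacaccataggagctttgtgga
Defa23 and Defa20 were 81.2% identical over this window, with the letters beginning at positions -113 and -73 from the start in Defa23 and at -111 and -71 in Defa20. In Sp5 they began at -204 and -104. Of the 20 largest rises, 14 had a promoter in the table and 5 of those held the letters (Mmp7 and Prss56 besides these 3). Over all called risers 16.0% of 761 promoters held them, against 13.3% of 16689 promoters of all tested genes and 13.5% of 386 promoters of called fallers. A match describes the letters and is not evidence of binding.

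In the largest falls the polyps disagreed among themselves. Maob, monoamine oxidase B, was at 0.44 and -1.37 in untreated and -1.76 and -1.96 in treated polyps, while inflamed mucosa had 2.03, 2.02, 2.25 and 1.86. Untreated polypoid replicate 1 was the polyp nearest to inflamed mucosa, and the fall was 9.24-fold (log2 -3.21 ± 0.38 SE, limma adjusted p = 0.0129). Abat, which degrades the transmitter GABA, also had its highest polyp value in untreated polypoid replicate 1, at 3.15 and 0.83 in untreated and -0.34 and 0.0 in treated polyps against 4.72, 3.59, 5.1 and 4.25, and fell 11.4-fold (log2 -3.51 ± 0.56 SE, limma adjusted p = 0.0246). Nlrp6, a sensor that assembles inflammasomes in gut epithelium, went from 4.14, 5.0, 4.21 and 3.82 to 2.59, 1.48, 0.36 and 0.47 (-3.07 ± 0.31 SE, limma adjusted p = 0.00878), and missed the threshold without treated inflamed replicate 1 (0.0586).

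Klk4, a kallikrein protease, was at 4.49, 4.63, 4.81 and 4.02 in inflamed mucosa and 2.29, 1.1, 0.15 and 0.4 in polyps. It fell 11.3-fold (log2 -3.5 ± 0.3 SE, limma adjusted p = 0.00626). Of the 20 largest falls, Klk4 was the one that passed in all 8 fits that left out a mouse, while 13 of the 20 largest rises did so. Leaving out treated polypoid replicate 2 or treated inflamed replicate 1 each ended 18 of the 20 large falls, treated polypoid replicate 1 ended 17, treated inflamed replicate 2 ended 16, and untreated inflamed replicates 1 and 2 ended 14 and 13. Leaving out untreated polypoid replicate 1 ended 1 and untreated polypoid replicate 2 ended 3. No large fall changed sign in these fits.

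**Figure D2:**
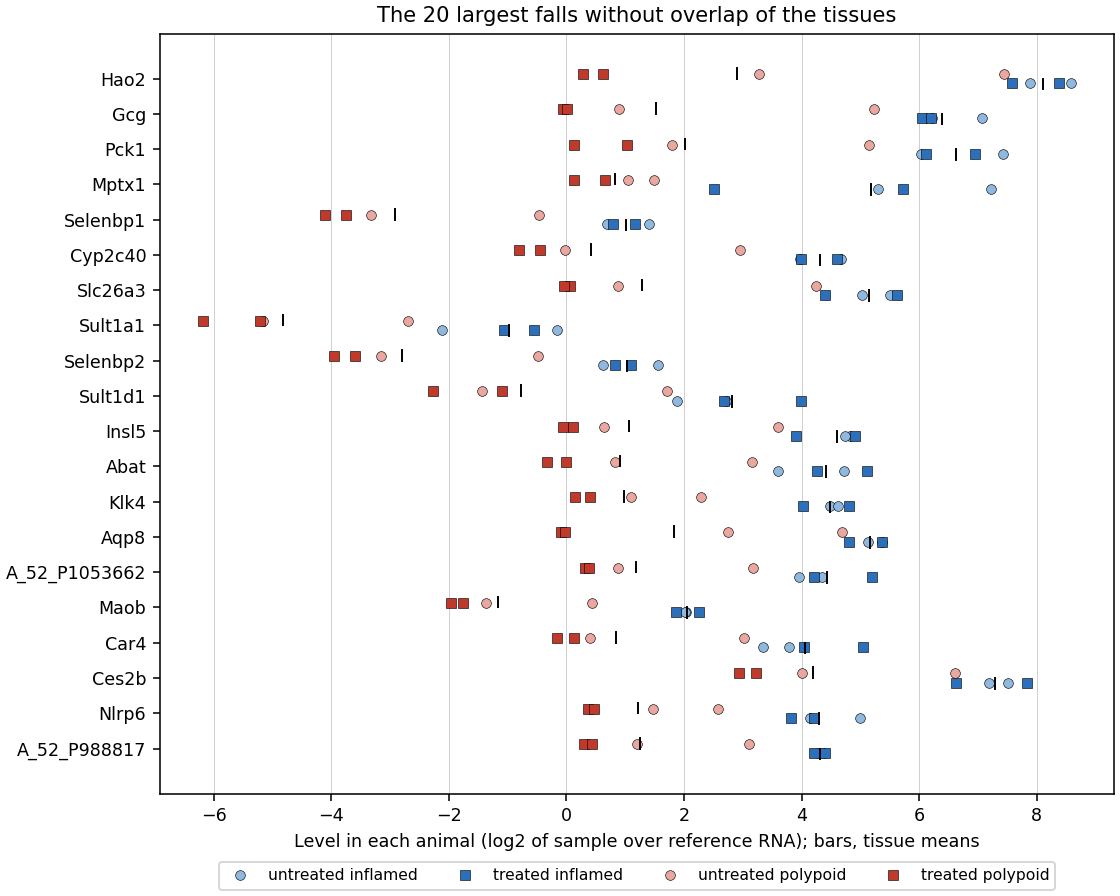
Level in each mouse (log2 of sample over reference RNA) of the 20 genes with the largest falls among called genes whose tissues did not overlap, with circles for untreated and squares for treated mice and bars for tissue means; a name beginning with A_52 is a probe with no gene name. For every gene but Mptx1, untreated polypoid replicate 1 is the rightmost red point (7.44 for Hao2), and both treated polyps lie far to the left (0.62 and 0.28 for Hao2); with session as a block the difference of Mptx1 was -1.86 against -4.36.

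The selenium-binding proteins Selenbp1 and Selenbp2 were paralogs that fell together. Selenbp1 was at 0.7, 1.4, 1.16 and 0.79 in inflamed mucosa and -0.47, -3.32, -4.11 and -3.75 in polyps, and Selenbp2 at 0.63, 1.56, 1.11 and 0.83 and -0.48, -3.15, -3.95 and -3.6. The values of the pair are nearly alike in each mouse, and their probes may read each other, so the 2 falls may not be separate. Both probes were saturated on some inflamed arrays (5 and 4 of 7), so the falls of -3.93 and -3.82 may be understated. Their upstream windows lie at chr3:94932833-94933132 and chr3:94693323-94693622 on the plus strand of GRCm38.p6 in RefSeq. They are shown because the pair shares a match to the letters of CDX, the intestinal homeobox factors. Here too a match describes the letters and is not evidence of binding, and a part of CDX in the falls was not tested. Capitals mark TTTATNG on either strand, with N any base.
Selenbp1: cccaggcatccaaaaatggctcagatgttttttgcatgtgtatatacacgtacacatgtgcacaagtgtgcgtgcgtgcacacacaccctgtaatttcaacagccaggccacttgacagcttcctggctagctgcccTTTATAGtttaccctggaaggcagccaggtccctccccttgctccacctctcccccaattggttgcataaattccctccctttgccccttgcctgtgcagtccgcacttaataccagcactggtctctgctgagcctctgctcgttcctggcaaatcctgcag
Selenbp2: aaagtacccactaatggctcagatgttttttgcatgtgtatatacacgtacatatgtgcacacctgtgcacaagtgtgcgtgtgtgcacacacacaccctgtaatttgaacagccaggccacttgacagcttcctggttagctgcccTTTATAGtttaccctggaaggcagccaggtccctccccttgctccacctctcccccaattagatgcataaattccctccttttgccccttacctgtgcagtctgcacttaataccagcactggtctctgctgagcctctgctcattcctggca
The windows were 87.5% identical, with the match beginning at position -113 from the start in Selenbp1 and -103 in Selenbp2. Of the 20 largest falls, 15 had a promoter in the table and 5 held these letters, the others being Pck1, Aqp8 and Car4. The letters were in 10.9% of the promoters of called fallers, 8.94% of those of called risers and 8.53% of all. The palindrome CACGTG, bound by clock and Myc-family factors, was in 10.1% of riser and 5.96% of faller promoters against 8.87% of all, and AP-1 letters (TGANTCA) were in 6.04%, 6.22% and 6.46%. The letters of HNF4 (CAAAGTCCA) were in 3 of 386 faller promoters (0.777%), in 0 of 761 riser promoters and in 0.479% of all. Matches by name to NF-kB were in 11.3% of riser, 10.4% of faller and 9.87% of all promoters.

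Each mouse could be placed against genes that were called without it. For every mouse the test was refitted on the other 7, and the mouse was located on those genes between the inflamed mean (0) and the polyp mean (1) of the others. Treated inflamed replicate 1 sat at -0.11 on 105 rising and -0.09 on 20 falling genes, and 99% and 95% of them lay on its own side of the midpoint. The treated polyps sat at 1.11 and 1.0 on rising genes and at 1.2 and 1.02 on falling ones. Untreated polypoid replicate 1 was split: it was at 0.73 on 723 rising genes, with 78.6% on the polyp side, but at 0.36 on 602 falling genes, with 33.7% on the polyp side. Untreated polypoid replicate 2 was close to replicate 1 on rising genes, at 0.71, but on falling genes it lay beyond the polyp mean of the others, at 1.16. Among the inflamed samples, untreated inflamed replicate 2 was nearest to the polyps on falling genes, at 0.39 with 58.6% on its own side.

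**Figure D3:**
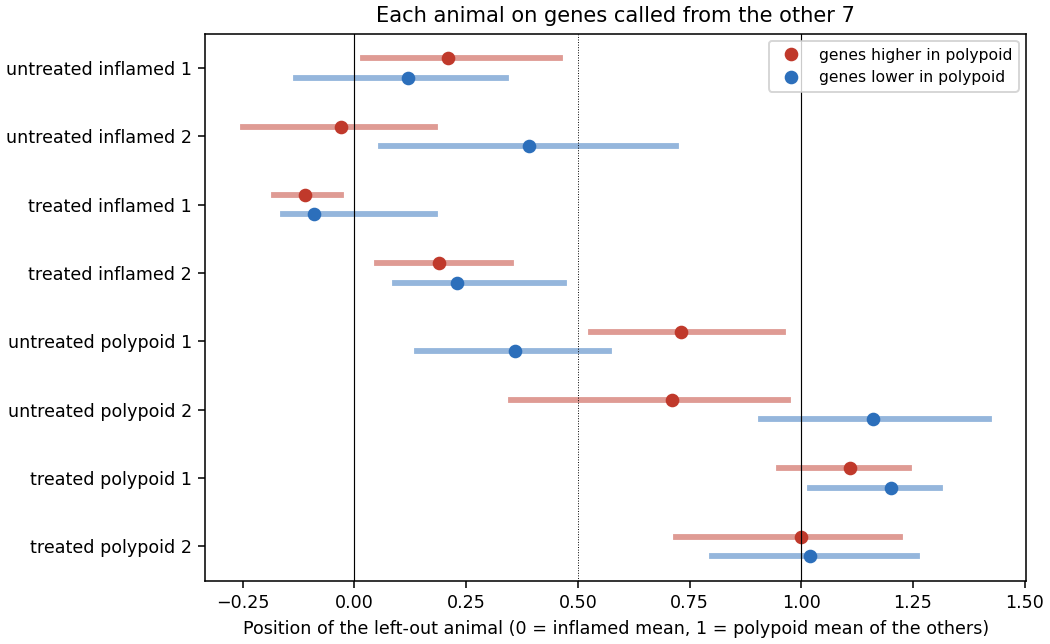
Position of each mouse on genes called from the other 7 mice, where 0 is the inflamed mean and 1 the polyp mean of those 7, drawn as the median (point) and quartiles (bar) over genes for those higher (red) and lower (blue) in polyps. Untreated polypoid replicate 1 lies at 0.73 on the rising genes and at 0.36 on the falling genes, below the dotted midpoint.

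The 2 arms used different mice, which allowed genes picked in 1 arm to be read in the other, although the arms shared the reference RNA and scan sessions. Of the 200 genes with the largest rises in untreated mice, 196 were also higher in treated polyps, 183 of them more than 2-fold, and the median was 2.42 where they were picked and 2.47 in the other arm. Of the 200 largest falls in untreated mice 193 were lower in treated polyps, with medians of -1.77 and -1.85. In the opposite direction the falls shrank: genes picked for their fall in treated mice had a median of -2.85 there and -1.28 in untreated mice. Across all genes, which are not independent replicates, the arms' differences correlated at r = 0.65 and rho = 0.49. Of the 1265 called genes 1262 had the same sign in both arms, and 340 of 419 fallers and 610 of 846 risers had the larger size in treated mice. The calls rest on the mean of these same arms, so agreement in sign is largely fixed by the selection. Over all genes the differences also spread more widely in treated mice (SD 0.69 against 0.54).

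No gene passed limma for a difference of the tissue effect between arms, with 1273 genes at an unadjusted p under 0.05 (5.98%) and a smallest adjusted p of 0.797. The gene with the smallest p was Xdh, xanthine dehydrogenase, at 0.19, -0.13, 2.38 and 1.87 in inflamed mucosa and 1.62, 1.27, 0.01 and -0.75 in polyps. Its tissue difference was 1.41 in untreated and -2.5 in treated mice, and the difference between arms of -3.91 ± 0.45 SE did not pass (limma adjusted p = 0.797). Prom2, a membrane protein of epithelial protrusions, was called for tissue in both arms together (1.5 ± 0.11 SE, limma adjusted p = 0.00426), with 0.73 in untreated and 2.27 in treated mice.

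**Figure D4:**
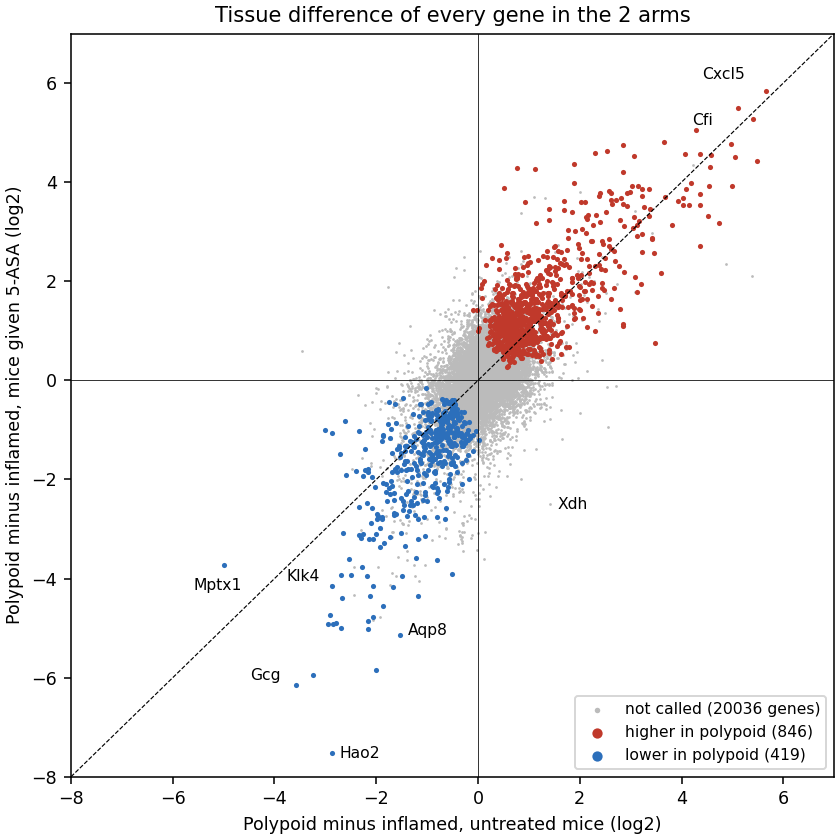
Polypoid minus inflamed difference of every gene (log2) in untreated mice (horizontal) and in mice given 5-ASA (vertical), with called genes in colour and the dashed line marking equal differences. Of the 846 risers 610 lie above the line, and 340 of the 419 fallers lie below it, and Xdh lies in the quadrant of opposite signs without passing the test.

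Gene families and pathways were then read as counts, for some lists beside their medians, against 3.97% of all genes called higher, 1.97% called lower and a median of -0.02. Of 117 called members named from the lists, 14 passed in all 8 fits that left out a mouse, and 102 missed the threshold without treated inflamed replicate 1. Of 29 ribosome biogenesis genes 28 had positive differences (median 0.58), and 4 rose and 1 fell. Nhp2, a core protein of snoRNA particles, was at -0.31, 0.18, -0.17 and -0.32 in polyps and -1.37, -1.18, -1.66 and -1.15 in inflamed mucosa (1.19 ± 0.17 SE, limma adjusted p = 0.0191), and the tissues did not overlap. Nop58 (0.92), Rrp1b (0.79) and Wdr43 (0.9) rose too, while Utp20 fell (-0.99); the tissues overlapped for Wdr43 and Utp20, and Utp20 was at -0.32 with session as a block. The 82 ribosomal proteins themselves had a median of 0.04 (between -0.01 and 0.12 under other scalings), and 1 was called, Rpl21, which fell (-1.01).

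Of 19 genes of purine and pyrimidine synthesis 5 rose and none fell, and 18 had positive differences (median 0.49). Ctps, which makes CTP, was at -0.8, -0.28, -0.27 and -0.51 against -1.49, -1.76, -2.29 and -1.8, a rise of 2.59-fold (log2 1.37 ± 0.18 SE, limma adjusted p = 0.0156). The uridine-cytidine kinase Uck2 (2.6-fold), the nucleoside diphosphate kinase Nme1 (2.16-fold) and the purine enzymes Pfas (1.86-fold) and Adss (1.79-fold) rose as well, all without overlap. Of 39 proteasome subunits 34 had positive differences (median 0.46): Psmd1, Psma7, Psmd14 and Psmb5 rose, and Psmb10, a subunit of the immunoproteasome, fell (-0.66, 2.0, 2.04, 1.39 and 1.41 against 2.22, 2.3, 2.3 and 2.68). The calls of Psmb5 and Psmb10 were lost whichever mouse was left out. Of 51 translation initiation genes 4 rose and Eif4ebp3, a repressor of cap-dependent translation, fell 3.34-fold (median of the list 0.34). Of 19 aminoacyl-tRNA synthetases Gars rose (median 0.37). With scan session as a block the medians of ribosome biogenesis, purine and pyrimidine synthesis and the proteasome were 0.86, 0.61 and 0.80.

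Of 15 genes of ketone body and butyrate use 6 fell and none rose, and 14 had negative differences (median -0.71). Hadh, a mitochondrial enzyme of fatty acid oxidation, was at 0.96, 1.02, 1.35 and 1.48 in inflamed mucosa and 0.45, 0.49, 0.02 and 0.2 in polyps (-0.91 ± 0.09 SE, limma adjusted p = 0.00925). The ketone enzymes Acat1 (-0.86) and Oxct1 (-0.75) fell without overlap of the tissues. Acsm3, a medium-chain acyl-CoA synthetase, fell 5.26-fold, but untreated polypoid replicate 1 (5.04) lay above untreated inflamed replicate 2 (4.71). Of 19 citrate cycle genes citrate synthase (Cs) fell (-0.64; list median -0.36, but -0.04 with session as a block). Of 19 glycolysis genes the lactate exporter Slc16a3 (3.05-fold) and the regulator Pfkfb3 (2.41-fold, with its 2 probes of opposite sign) rose and hexokinase 1 (Hk1) fell (-0.84), with a median of -0.06; session as a block gave log2 differences of 1.97 for Pfkfb3, against 1.27, and -1.27 for Hk1.

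Aldh1a3, which makes retinoic acid, was at 7.43, 7.09, 7.66 and 7.14 in polyps and 4.84, 4.35, 5.41 and 5.68 in inflamed mucosa and rose 4.79-fold (log2 2.26 ± 0.19 SE, limma adjusted p = 0.00552). Its relative Aldh1a1, with the same reaction, fell 5.46-fold, from -2.53, -1.38, -2.36 and -2.61 to -3.73, -4.84, -5.3 and -4.8. Neither gene had overlapping tissues. Aldh1b1 (-1.34) and Aldh2 (-0.92, with overlap) fell with Aldh1a7, and were at -0.57 and -0.45 with session as a block. In the arginine and polyamine list of 16 genes, arginase Arg1 rose 6.02-fold and spermine oxidase Smox 2.49-fold (log2 1.32, but 0.69 with session as a block); 4 of 7 inflamed arrays detected Arg1 above background. Of 23 cholesterol synthesis genes Fdps (1.13) and Hsd17b7 (0.87) rose.

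Of 13 laminin and nidogen chains, Lama5 was at 0.14, 0.82, 0.81 and 1.24 in polyps and -1.73, -1.75, -1.28 and -0.65 in inflamed mucosa (2.1 ± 0.22 SE, limma adjusted p = 0.01), with no overlap of the tissues. Of 12 annexins, which bind membranes under calcium, Anxa2 (3.26-fold), Anxa1 (2.45-fold) and Anxa5 (1.64-fold) rose and the intestinal Anxa13 fell 4.76-fold, at -4.36, -4.06, -4.37 and -3.72 against -0.77, -2.46, -2.06 and -2.21; its log2 difference was -2.25, but -0.78 with session as a block. Of 31 keratins Krt23 (8.07-fold), Krt36 (2.95-fold) and Krt7, saturated on 4 of 8 polyp arrays, rose and none fell. Of 27 integrins Itgb8 rose (0.71, 3 of its 4 probes with that sign), and Itga8 and Itgb7 (-1.37, a chain of gut-homing lymphocytes) fell. Of 55 cadherins, Cdh13 (4.38-fold, with its 2 probes of opposite sign) and 3 neighbouring protocadherins rose. Serpins (39), cathepsins (16), potassium channels (62), Hedgehog genes (14) and endoplasmic reticulum stress genes (24) had no call.

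**Figure D5:**
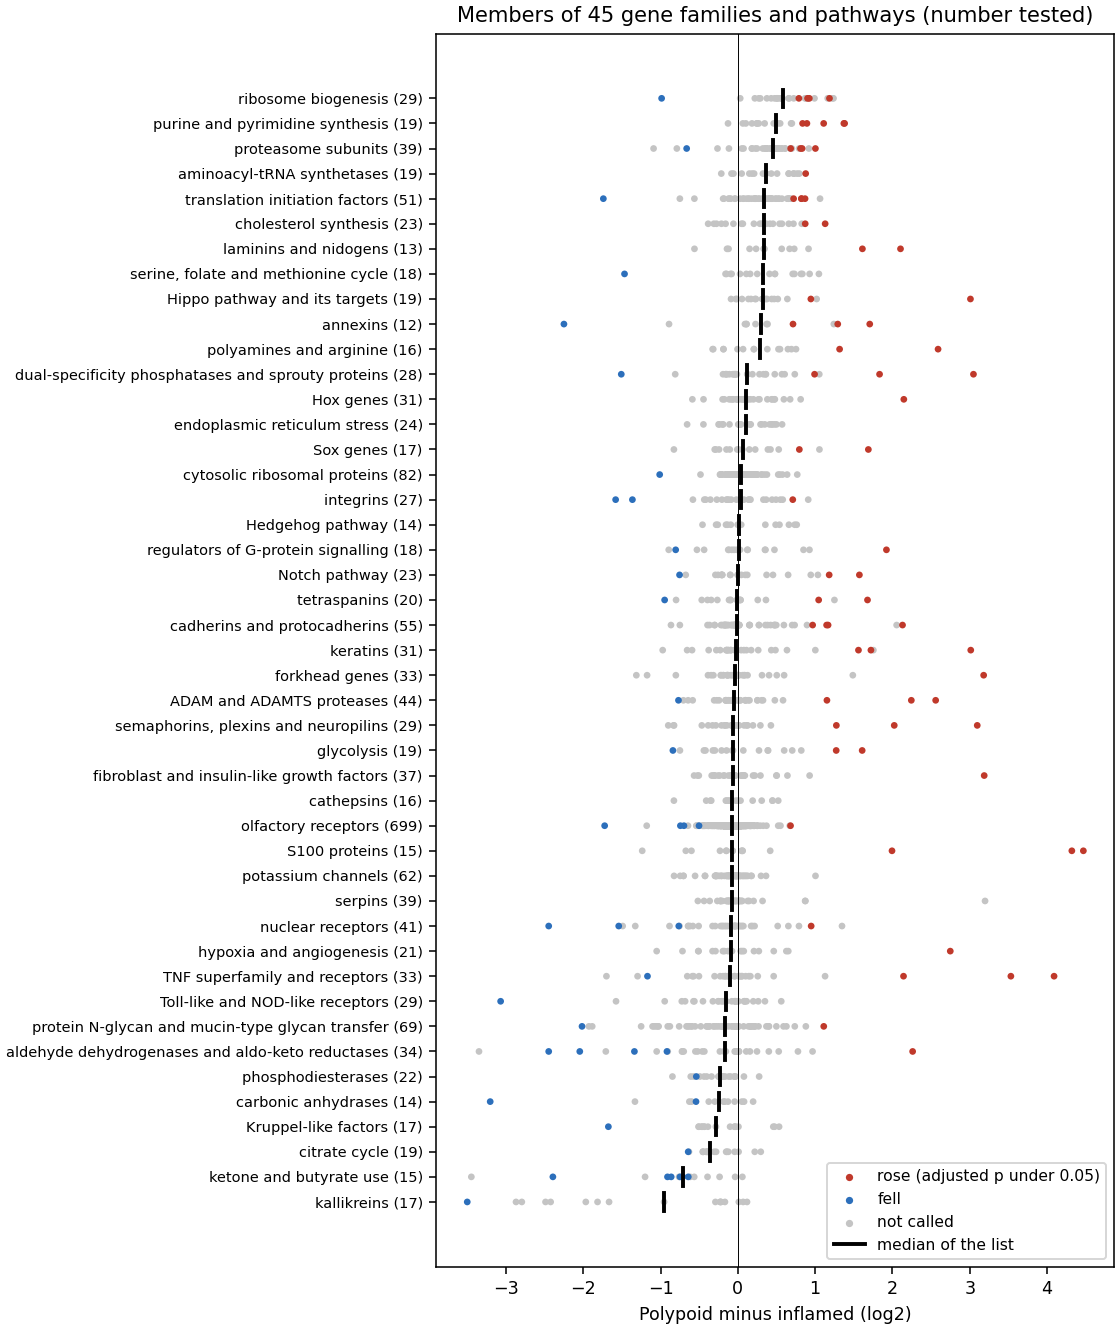
Polypoid minus inflamed difference (log2) of each member of 45 gene families and pathways, with called members in red (rose) or blue (fell), the rest in grey, and a black bar at the median of each list; lists are ordered by median. Ribosome biogenesis lies at the top with a median of 0.58 and ketone and butyrate use near the bottom at -0.71, while families such as semaphorins or keratins have medians near 0 with single members far to the right.

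In the TNF superfamily (33 genes) Tnfrsf11b, Tnfrsf19 (11.6-fold, a Wnt-linked receptor) and Tnfrsf12a (4.42-fold, the TWEAK receptor) rose and the B cell factor Tnfsf13 fell 2.25-fold. In the Notch pathway (23 genes) Notch1 (1.18) and Hes6 rose and the antagonist Numb fell (-0.76), while 20 were not called and the list median was 0. Hes6 was at 2.03, 2.17, 1.69 and 2.06 in polyps and 0.69, 0.49, -0.01 and 0.5 in inflamed mucosa (1.57 ± 0.16 SE, limma adjusted p = 0.00888), with no overlap. Yap1 rose 1.92-fold beside Tead2 in a Hippo list of 19 with a median of 0.32. Sema7a, a membrane-anchored semaphorin, was at 3.0, 2.8, 2.64 and 2.84 against 0.88, 0.97, 0.43 and 0.91 and rose 4.07-fold (log2 2.02 ± 0.14 SE, limma adjusted p = 0.00393), while the median of its 29-gene family was -0.06. The phosphatases Dusp14 (3.56-fold) and Dusp10 (1.99-fold) rose with Dusp4, and Dusp9 fell, with overlap of the tissues and its 2 probes of opposite sign. Angpt2, a vessel-destabilising ligand, rose 6.72-fold with untreated polypoid replicate 2 lowest (0.77).

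Hoxb7, the only call among 31 Hox genes, was at 3.29, 2.62, 3.19 and 2.8 in polyps against 0.74, 0.29, 1.18 and 1.1, a rise of 4.43-fold (log2 2.15 ± 0.2 SE, limma adjusted p = 0.00687). Sox9 (3.22-fold), a crypt progenitor factor, and Sox7 (1.74-fold) rose among 17 Sox genes. Klf4, a factor of differentiating surface cells, fell from 4.55, 4.65, 4.46 and 4.35 to 3.95, 3.17, 2.2 and 1.99 (-1.68 ± 0.19 SE, limma adjusted p = 0.0114) and was saturated on 5 of 7 inflamed arrays, so its fall may be understated. Among 41 nuclear receptors Nr5a2 (5.46-fold) and the vitamin D receptor Vdr (1.7-fold) fell and Nr4a1 rose 1.93-fold.

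The 17 kallikreins had a median of -0.96, and -0.66 without untreated inflamed replicate 1, with 1 call. Members of the Klk1 subfamily, near copies whose probes may read each other, lay between -2.87 (Klk1b16) and -0.17 (Klk1b9) and did not pass. Of the 699 olfactory receptors, smell receptors of the nose, 4 fell and 1 rose (0.715% called), and 539 had negative differences with a median of -0.07. Of these receptors 95 were lower without overlap against 3 higher, where all tested genes had 7.91% lower and 8.37% higher. Olfr570 had the largest difference of the family, at 2.11, 1.65, 2.02 and 1.77 in inflamed mucosa and 0.47, 0.08, 0.02 and 0.08 in polyps (-1.72 ± 0.16 SE, limma adjusted p = 0.00674). Whether signal near background or a scaling offset plays a part in the small shift of the family was not tested.

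Some genes were at background in inflamed mucosa. Of called risers, 7 were not well above background on any inflamed array, and for these a lower bound replaces the fold. Adcy8, an adenylyl cyclase, was well above background on all polyp arrays and at least 3.01-fold higher (limma adjusted p = 0.00431); the RNA-binding gene Rbm11 was at least 2.30-fold and Wdr72 at least 1.97-fold higher. Mmp8, the neutrophil collagenase, was at least 1.49-fold higher, though its call was lost in every fit that left out a mouse. Olr1, a scavenger receptor for oxidised lipoprotein, was detected on 1 of 7 inflamed arrays and was higher in untreated polyps (3.36 and 3.05) than in treated ones (1.79 and 1.39). Over all tested genes, 10 were detected on all polyp arrays and on at most 1 inflamed array. The reverse held for 2, Ckmt2 and Baat, which were detected on all inflamed arrays and 1 polyp array. Neither Ckmt2 nor Baat passed the test.

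Neighbouring genes were compared as a description. Among genes with a position in RefSeq, the next gene on the chromosome was also higher after 7.49% of 748 risers, against 4.45% of all, and also lower after 6.13% of 375 fallers, against 2.23%. There were 8 runs of 3 neighbours called in the same direction, and several hold paralogs whose probes may read each other. Each run held a member whose call was lost when some single mouse was left out. Mmp10, Mmp8 and Dnajc18 lost their calls whichever mouse was left out, without a change of sign. The rising runs were the matrix metalloproteases Mmp10, Mmp8 and Mmp7, the defensins Defa23, Defa22 and Defa31, the membrane proteins Ifitm2, Ifitm1 and Ifitm3, the protocadherins Pcdhb20, Pcdhb21 and Pcdhb22, the group Cfap69, Steap2 and Steap1, and the group Dnajc18, Ecscr and Sting1. In the last group, Ecscr, an endothelial surface protein, was at 3.94, 4.44, 4.69 and 3.83 in polyps and 1.96, 1.94, 1.29 and 1.59 in inflamed mucosa and rose 5.78-fold (log2 2.53 ± 0.22 SE, limma adjusted p = 0.00663). Its neighbour Sting1, a sensor of cyclic dinucleotides, rose 3.43-fold (log2 1.78 ± 0.18 SE, limma adjusted p = 0.00878). Of 9 listed endothelial markers 7 were tested and none was called. The mean level of the 7 was 1.02 to 1.64 in polyps against 1.06 to 1.60 in inflamed mucosa. A part of endothelial cells in the rise of Ecscr was not tested. The falling runs were the glutathione transferases Gstm3, Gstm2 and Gstm1 and the carbonyl reductases Cbr1 and Cbr3 with Dop1b; with session as a block Cbr3 was at -3.19 against -2.07 and Dop1b at -0.73 against -1.11.

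Markers of cells that a captured area could hold were set beside these results. All 12 epithelial markers were well above background on all arrays, and their mean level was 2.45 to 3.13 in polyps and 2.90 to 3.37 in inflamed mucosa, with Cdx1 the 1 member that fell. Of 10 listed neutrophil markers 6 were tested, and 3 rose. The mean level of the 6 was 2.0 to 2.9 in polyps against 0.27 to 0.64, which moved with Arg1 and Mmp8. S100a8 and S100a9 are themselves members of this list, and 2 of the 6 markers were well above background on all arrays. A marker dim in inflamed mucosa could pass the detection filter through a polyp group alone, so this mean may be tilted toward polyps. Of 9 smooth muscle markers 4 fell, with means of 0.52 to 1.06 against 1.22 to 3.14, highest in untreated inflamed replicate 1, and Itga8 was lower in polyps too but highest in treated inflamed replicate 2; with session as a block the list's median was -0.74 against -1.26. The B and plasma cell markers had means of 0.31 to 1.63 against 1.42 to 3.14, also highest in untreated inflamed replicate 1, and 1 of 8 fell, the same direction as Itgb7 and Tnfsf13. The median difference of that list was -1.35, but -0.55 without that mouse and -0.25 with session as a block. Their part in those results was not tested. Leukocyte (8), macrophage (9) and T cell markers (8) had no call, and in the fibroblast (11) and enteric neuron and glia lists (8) Postn (-2.16) and Stmn2 (-1.16, but -0.71 with session as a block, and with its 2 probes of opposite sign) fell.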

How the data were processed

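Two-colour Agilent arrays measured mRNA of 8 laser-captured mouse colon samples, 15 arrays in all. The deposited scanner files hold linear intensity per spot and channel, extracted by Agilent Feature Extraction 9.1.1.1 per the file headers, and the LogRatio column of those deposited files is log10 of red over green. The series' deposited value table holds log2 ratios, which correlated with the ratios computed here at r of at least 0.995 on every array, and its exact steps are not given in the sources used here. Mean intensities were background-corrected (normexp, offset 50) and loess-normalised within arrays in limma 3.58.1 under R 4.3.3, with the 2256 control spots among 43790 spots left out, and turned to log2 of sample over reference. Arrays of 1 mouse were combined with a dye term, so treated inflamed replicate 2 rests on 1 dye.

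Probes (41174) were named by accession (22864) or name (10230) through RefSeq, with the array's own name kept for 8080. The brightest probe stood for a gene, and a gene was kept if all arrays of 1 or more groups detected it well above background in the sample's dye. limma fitted the 4 group means on 8 mice, tissue being the mean over the arms, with Benjamini-Hochberg adjustment at 0.05. The script was tested on simulated data. Bounds set the bright tissue's mean against the lowest signal well above background.

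The members and lists were chosen with earlier results of these data known. Genes were named by rule: the 20 largest rises and falls without overlap, the 10 smallest p each way, up to 5 called members of each list (the member with the smallest p where none was called), up to 10 genes by difference between arms, up to 12 each way detected in 1 tissue and on at most 1 array of the other, runs of neighbouring genes, the 5 called genes with the largest SD in each tissue, and the cell type markers; Klk1b9 was named after its value was seen. Samples with the same replicate number deviated together only weakly (r of 0.03 to 0.36) and the labels give the number no meaning. Replicate 1 of each group was scanned in session 1 or 2 and replicate 2 in session 3 or 4. Some members of the lists are not reported here.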

Additional observations from a re-analysis of the deposited data

Results flagged for a closer look

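Among 134 sets of 4 mice checked with Dixon's criterion, 12 held a mouse far from the others, and chance alone gives such sets at about 5%. In inflamed mucosa, treated inflamed replicate 2 was high for Defa23 (3.33, next 0.36), Defcr6 (1.78, next 0.19) and Prss56 (2.15, next 0.25). Untreated inflamed replicate 1 was high for Il33 (-1.04, next -2.11) and Gcg (7.07, next 6.21) and low for Slco2a1 (-0.97, next -0.4). Untreated inflamed replicate 2 was high for S100a8 (1.6, next 0.43), and treated inflamed replicate 1 low for Insl5 (3.9, next 4.74). Among polyps, treated polypoid replicate 2 was low for Il33 (1.89, next 2.92) and Lcn2 (1.05, next 2.88). Untreated polypoid replicate 2 was low for Defa23 (5.14, next 6.04), and untreated polypoid replicate 1 was high for Pmp22 (1.1, next 0.31). All values are log2 of sample over reference.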

How the results depend on the processing

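The tissue comparison gave between 911 and 1788 calls under the alternatives other than leaving out mice and the session block, against 1265. They were 1654 from the scanner software's processed signals, 967 from the deposited value table, 1135 without the filter on dim probes, 1312 with probes averaged, 1273 without a dye term and 1255 in the additive fit. Scaling to a common median absolute ratio (911) and the sample channel alone (1200) were chosen after seeing the data. With scan session as a block 0 genes passed in limma (3055 at an unadjusted p under 0.05), in a fit with fewer residual degrees of freedom. Leaving out 1 mouse gave 125 to 1325 calls, with rising shares of 54.6% to 84%. With the replicate number as a block there were 1788 calls, and 2 of the 199 named called genes missed the threshold. The numbers pair nothing in the labels, but they follow the scan sessions, with replicate 1 in sessions 1 and 2 and replicate 2 in sessions 3 and 4. The difference between arms had 0 calls in every fit run. No named called gene changed sign in any fit. Of the 199, 199 missed the threshold with the session block, 147 without treated inflamed replicate 1, and between 1 and 43 under the other alternatives that kept all mice. The planned quantile scaling between arrays leaves log ratios as they are and was not run. Signal over background limits low genes, since 151 called risers were dim on at least 1 inflamed array, and saturation limits 21 fallers.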
